A study of Homo sapiens with 36 samples.

Results

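The 10 immediate early transcription factor genes EGR1, EGR2, EGR3, NR4A1, NR4A2, NR4A3, FOS, FOSB, JUN and JUNB were followed by RNA sequencing in B-cell models of chronic lymphocytic leukaemia (CLL) exposed to anti-leukaemic drugs. They were taken by gene symbol, as EGR, NR4A and AP-1 genes that act downstream of the B-cell receptor, and all 10 were found among the 37549 symbols of the count table. The models were the p53-mutated line MEC1 and the p53 wild-type lines JVM2 and EHEB, each an established B-leukaemic cell line. Cells received the vehicle DMSO, the purine analogue fludarabine at 50 µM, the Bruton tyrosine kinase inhibitor ibrutinib at 5 µM, or the phosphatidylinositol 3-kinase inhibitor idelalisib at 10 µM. MEC1 cells were harvested after 48 h of exposure, JVM2 cells after 72 h and EHEB cells after 96 h, and an effect of the line cannot be told apart from one of the time. Each of the 12 groups had 3 libraries. The labels do not say whether these came from separate cultures, so the p-values measure only the spread between these libraries. In the libraries analysed here each drug has 1 dose and 1 time per line, and the labels name no stimulation of the B-cell receptor.

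Immediate early genes are transcribed within minutes of a signal, without prior protein synthesis, from promoters on which factors such as SRF and CREB already wait. In B cells, ligation of the B-cell receptor activates Bruton tyrosine kinase and phosphatidylinositol 3-kinase, and the calcium and ERK branches that follow switch these genes on. Their products are transcription factors themselves: EGR proteins are zinc-finger factors that bind GC-rich sites, NR4A proteins are orphan nuclear receptors, and FOS and JUN proteins pair to form AP-1.

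Promoter stretches that match the motifs of SRF and CREB, or a variant of the CREB motif, are shown first. RefSeq promoter windows (GRCh38.p14, 250 bases before to 50 bases after the start) were at hand for 8 of the 10 genes, in 11 windows, and not for EGR3 and NR4A2. A gene was counted if any of its windows held the motif, whereas the shares of all windows are per window, so the 2 are not in the same unit. Both strands were searched. Sites outside these windows, such as those further upstream, could not be found, so a motif missing here may still lie near the gene. The CArG box, the site bound by SRF, was found in EGR1, where it occurred at 2 places, and in EGR2, against 1.29% of 35116 promoter windows of the same length. In the following stretches, written 5′ to 3′ on the strand of the gene, capitals mark the CArG box.
EGR1, chr5:138465364-138465393, plus strand: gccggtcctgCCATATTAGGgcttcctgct
EGR1, chr5:138465386-138465415, plus strand: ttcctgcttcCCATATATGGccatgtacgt
EGR2, chr10:62816418-62816447, minus strand: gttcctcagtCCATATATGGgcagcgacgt

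The short CREB motif TGACG, on either strand, was found in 7 of the 8 genes (all but NR4A1), against 24.6% of all windows. The full palindrome TGACGTCA was found in none of the 8 and in 1.85% of all windows. JUN held the variant TGACATCA, which occurred in 2.61% of all windows and is known as a site for JUN and ATF2 dimers. Capitals mark TGACG in FOS, FOSB and NR4A3 and TGACATCA in JUN.
FOS, chr14:75278752-75278781, plus strand: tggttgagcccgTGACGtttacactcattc
FOSB, chr19:45467924-45467953, plus strand: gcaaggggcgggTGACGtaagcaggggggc
NR4A3, chr9:99821790-99821819, plus strand: atggcgtcacatTGACGtctcgcattccag
JUN, chr1:58784096-58784125, minus strand: aggccttggggTGACATCAtgggctatttt

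The EGR motif GCGNGGGCG was present in EGR1 and EGR2 (9.43% of all windows) and the motif TATAAA in FOS, FOSB and JUNB (11.5%). The AP-1 motif TGANTCA (7.71%) and the NR4A motif AAAGGTCA (1.22%) were in none of the 8. These matches describe the letters of the windows and were not tested as sites.

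The libraries held 26590705 to 53538925 estimated counts (median 42114145), and mitochondrial genes took 0.396% to 2.66% of them. In each line this share was lowest with DMSO except for an overlap in EHEB, where it was 1.27% to 1.66% with DMSO and 1.45% to 2.05% with idelalisib. The 7 B-cell markers summed to 672 to 2195 CPM (CPM; library sizes were adjusted by TMM) and none was at 0. Their sum was lower with fludarabine than with DMSO, at 672 to 733 CPM against 1284 to 1308 CPM in JVM2, 951 to 1065 CPM against 1773 to 1843 CPM in EHEB, and 1002 to 1016 CPM against 1175 to 1224 CPM in MEC1. With the kinase inhibitors it was above DMSO in MEC1, at 1985 to 2195 CPM with ibrutinib and 2001 to 2043 CPM with idelalisib, and in JVM2, at 1521 to 1530 CPM and 1605 to 1651 CPM. In EHEB it was 1779 to 1949 CPM with ibrutinib, overlapping DMSO, and 1925 to 2009 CPM with idelalisib. The 5 T-cell, 5 myeloid and 5 stromal and erythroid markers summed to at most 15.6, 14.3 and 32.1 CPM. The myeloid sum was 12.9 to 14.3 CPM with fludarabine and 3.09 to 3.68 CPM with DMSO in EHEB, mostly from S100A9, and 4.43 to 6.26 CPM against 0.441 to 0.924 CPM in MEC1, mostly from CSF1R. The stromal and erythroid sum was 27.6 to 32.1 CPM with idelalisib and 21.0 to 23.0 CPM with ibrutinib against 9.87 to 10.8 CPM with DMSO in JVM2, mostly from COL1A1. In EHEB it was 16.3 to 19.4 CPM with idelalisib and 10.4 to 12.1 CPM with ibrutinib against 2.62 to 4.02 CPM, and in MEC1 19.9 to 21.3 CPM with fludarabine against 2.53 to 5.33 CPM. The T-cell sum was 4.83 to 5.65 CPM with fludarabine against 0.559 to 1.01 CPM with DMSO in MEC1, and 5.23 to 6.04 CPM with ibrutinib and 3.38 to 6.07 CPM with idelalisib against 9.63 to 12.4 CPM in EHEB. CD3D, CD3G, LYZ, COL1A2, HBA1 and HBB reached at most 0.239 CPM in any library. The part of these differences in the results below was not tested. The titles number the DMSO and fludarabine libraries of a line in one run of numbers and the ibrutinib and idelalisib libraries in another, so a difference between a kinase inhibitor and DMSO and a difference between these runs cannot be told apart. In bulk RNA, less RNA per cell and fewer expressing cells cannot be told apart.

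With DMSO, JUNB was the most abundant member in each line. Per kb of transcript, which allows levels to be compared between genes, it reached 31.4 ± 1.15 CPM per kb in MEC1, 86.5 ± 4.43 in JVM2 and 78.7 ± 6.41 in EHEB (mean ± SD, n = 3). JUN came next, at 5.66 ± 0.216, 15.9 ± 0.474 and 9.06 ± 0.902 CPM per kb, and the 2 genes did not overlap in any line. In EHEB, JUN and EGR1 (8.54 ± 1.40 CPM per kb) overlapped. The middle of the order differed between lines. NR4A2, EGR1, EGR2 and NR4A1 followed in MEC1, and EGR2, EGR1, NR4A1 and NR4A2 in JVM2, each overlapping its neighbour among these 4. EGR1, EGR2 and EGR3 followed in EHEB, where EGR1, EGR2 and EGR3 did not overlap each other. The lowest was NR4A3 in MEC1 (0.389 ± 0.0865 CPM per kb) and FOS in JVM2 (0.131 ± 0.119) and EHEB (0.489 ± 0.151), the last 2 overlapping NR4A3.

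**Figure D1:**
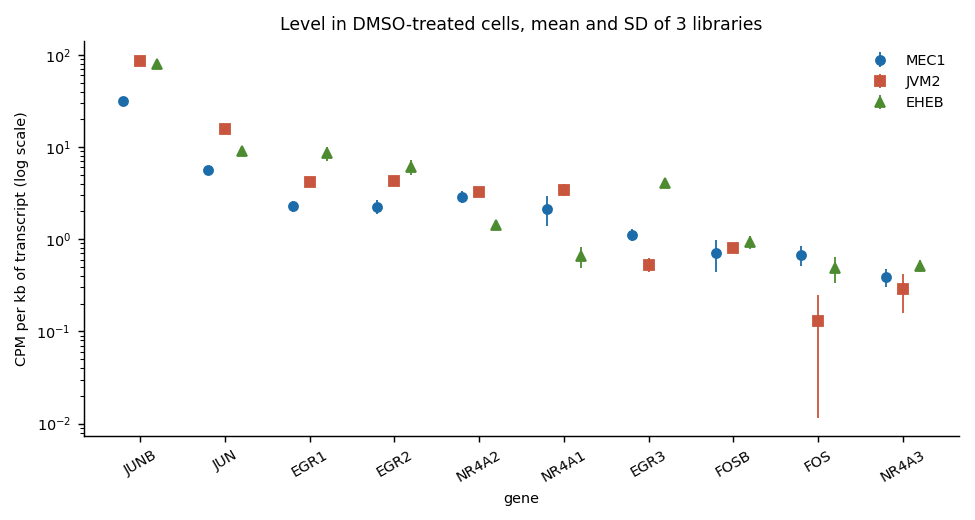
Level of each gene in DMSO-treated cells in CPM per kb of transcript, on a log scale; points are means of 3 libraries and bars are SDs. JUNB sits highest in each line, JUN second, and FOS and NR4A3 lie at the bottom.

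Against DMSO, fludarabine raised members and lowered none, whereas the kinase inhibitors mostly lowered them. Of 30 results with fludarabine (10 genes in 3 lines), 18 were higher and 0 lower at an adjusted p under 0.05 (edgeR, quasi-likelihood F-test, p-values adjusted after Benjamini and Hochberg). Of 30 results with ibrutinib, 1 was higher and 21 lower, and of 30 with idelalisib, 3 were higher and 20 lower. All 10 genes passed the filter on low counts in each line, and the lines were fitted on 17516 (MEC1), 17508 (JVM2) and 17748 (EHEB) genes. The comparisons with DMSO share their control libraries. Changes are given below as log2 fold changes with their standard error (SE).

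With fludarabine, 5 of 10 members were higher and 0 lower in MEC1, against 21.2% of all genes higher and 22.7% lower. The counts were 6 higher and 0 lower in JVM2 (23.9% and 23.3% of all genes) and 7 higher and 0 lower in EHEB (18.4% and 19.2%). The median log2 fold change of the members was 0.67 in MEC1, 0.54 in JVM2 and 1.13 in EHEB, beside 0.06, 0.06 and 0.02 over all genes. Scaling by library size alone shifts the fold changes of every gene with fludarabine by 0.25 (MEC1), 0.20 (JVM2) or 0.11 (EHEB). It gave 5, 7 and 7 higher members and none lower.

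With ibrutinib, 0 members were higher and 9 lower in MEC1 (23.7% of all genes higher, 23.9% lower), 0 and 7 in JVM2 (14.5% and 15.0%), and 1 and 5 in EHEB (8.50% and 11.2%). Their median log2 fold change was −1.74, −1.01 and −0.41, beside 0.06, −0.0014 and 0.01 over all genes. With idelalisib, 0 were higher and 10 lower in MEC1 (27.6% and 27.4%), 1 and 6 in JVM2 (21.6% and 22.6%), and 2 and 4 in EHEB (15.1% and 18.2%). Their median was −1.55, −0.79 and −0.48, beside 0.08, 0.03 and 0.01. EGR1, EGR3 and JUNB fell with both kinase inhibitors in all 3 lines, and NR4A2, JUN and JUNB rose with fludarabine in all 3 lines. The share of all genes called in the same direction in all 3 lines was not counted. Some of these calls were lost in other fits or without a library, as given below. They were NR4A2 with fludarabine in MEC1 and JVM2, JUNB with fludarabine in EHEB and JUNB with ibrutinib in MEC1.

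EGR1 encodes the zinc-finger factor most often used as a readout of ERK signalling, and its gene lies on chromosome 5, 138465479 to 138469303 (GRCh38, GENCODE release 44, plus strand, 2 exons). In MEC1, its libraries held 6.15, 7.30 and 8.003 CPM with DMSO, 4.61, 5.89 and 6.01 CPM with fludarabine, 0, 0.653 and 0.760 CPM with ibrutinib and 1.94, 2.05 and 2.08 CPM with idelalisib. The kinase inhibitor libraries all lay below those with DMSO, and the library at 0 stood beside 2 ibrutinib libraries with 30 and 38 counts. EGR1 fell by 3.89 (SE 0.61, adjusted p = 0.000333) on the log2 scale with ibrutinib and by 1.82 (SE 0.55, adjusted p = 0.0146) with idelalisib; without the library at 0, the fall with ibrutinib was 3.33. With fludarabine, no library reached the lowest DMSO value, but the difference of −0.38 (SE 0.52, adjusted p = 0.589) did not pass the test (approximate 95% interval −1.40 to 0.64).

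In JVM2, EGR1 stood at 11.8, 13.5 and 13.6 CPM with DMSO, 15.2, 16.9 and 17.98 CPM with fludarabine, 2.98, 3.63 and 3.77 CPM with ibrutinib and 3.41, 4.35 and 4.78 CPM with idelalisib. No group overlapped DMSO, fludarabine lying above it and both inhibitors below. EGR1 fell by 1.90 (SE 0.14, adjusted p = 7.29e-06) with ibrutinib and by 1.64 (SE 0.14, adjusted p = 4.48e-06) with idelalisib. It rose by 0.37 (SE 0.13, adjusted p = 0.0409) with fludarabine, a call that was lost without the filter on low counts (0.0565) and without DMSO library JVM2_85 (0.132), DMSO library JVM2_86 (0.0633), DMSO library JVM2_87 (0.0676), fludarabine library JVM2_94 (0.124) or fludarabine library JVM2_95 (0.0883), with the adjusted p of each such fit in parentheses. In EHEB the values were 21.7, 29.1 and 29.5 CPM with DMSO, 24.4, 24.8 and 25.4 CPM with fludarabine, 11.5, 11.6 and 12.5 CPM with ibrutinib and 5.92, 6.32 and 6.59 CPM with idelalisib. Only the fludarabine libraries lay within the DMSO range, with a difference of −0.11 (SE 0.11, adjusted p = 0.496); without DMSO library EHEB_133 the adjusted p was 0.0398. The fall in EHEB was 1.17 (SE 0.11, adjusted p = 4.54e-05) with ibrutinib and 2.09 (SE 0.12, adjusted p = 2.99e-07) with idelalisib.

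EGR2, a paralogue with known roles in restraining lymphocyte activation, lies on chromosome 10, 62811996 to 62819167 (minus strand) and shares its position with a non-coding RNA of the same strand, so reads of the pair cannot be told apart. MEC1 libraries held EGR2 at 5.44, 7.05 and 7.71 CPM with DMSO, 10.2, 31.8 and 35.3 CPM with fludarabine, 0.479, 0.4999 and 0.880 CPM with ibrutinib and 1.60, 1.81 and 2.01 CPM with idelalisib. All fludarabine libraries lay above DMSO, although one of them, at 10.2 CPM, stood well below the other two, and all kinase inhibitor libraries lay below. EGR2 rose by 1.93 (SE 0.38, adjusted p = 0.00164) with fludarabine and fell by 3.43 (SE 0.44, adjusted p = 7.80e-05) with ibrutinib. It fell by 1.90 (SE 0.40, adjusted p = 0.00199) with idelalisib. The last call was lost with limma-voom (adjusted p = 0.0552). JVM2 libraries held EGR2 at 11.7, 12.7 and 13.5 CPM with DMSO, 17.8, 28.4 and 29.4 CPM with fludarabine, 6.30, 7.68 and 8.97 CPM with ibrutinib and 5.72, 12.99 and 13.2 CPM with idelalisib. EGR2 rose by 0.996 (SE 0.29, adjusted p = 0.0157) with fludarabine, which was lost without DMSO library JVM2_87 (0.0530), fludarabine library JVM2_95 (0.0505) or fludarabine library JVM2_96 (0.0576). The ibrutinib libraries lay below DMSO without passing the test (−0.72, SE 0.30, adjusted p = 0.0932; with DESeq2 the adjusted p was 0.0434 and with only the 6 libraries compared 0.0117). In EHEB EGR2 stood at 14.4, 19.9 and 20.4 CPM with DMSO, 19.1, 21.0 and 45.8 CPM with fludarabine, 15.3, 16.4 and 18.3 CPM with ibrutinib and 7.86, 24.4 and 25.7 CPM with idelalisib. Every treatment there overlapped DMSO and none passed the test, with differences of 0.65, −0.13 and 0.08 for fludarabine, ibrutinib and idelalisib (adjusted p = 0.257, 0.869 and 0.910).

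EGR3, on chromosome 8, is a target of calcium and NFAT signalling in lymphocytes that overlaps a non-coding RNA of the opposite strand. In MEC1 its levels were 4.14, 5.47 and 5.57 CPM with DMSO, 4.62, 5.39 and 5.74 CPM with fludarabine, 0.674, 0.833 and 1.02 CPM with ibrutinib and 1.85, 1.93 and 1.99 CPM with idelalisib. The fludarabine libraries overlapped the DMSO range (0.05, SE 0.18, adjusted p = 0.830), and both inhibitors lay below it. In JVM2 the values were 1.97, 2.39 and 2.82 CPM with DMSO, 5.22, 5.93 and 6.42 CPM with fludarabine, 0.887, 0.900 and 1.03 CPM with ibrutinib and 0.319, 0.369 and 0.749 CPM with idelalisib, and no treatment overlapped DMSO. In EHEB, where EGR3 was most abundant, they were 17.6, 17.96 and 19.5 CPM with DMSO, 48.9, 50.2 and 51.2 CPM with fludarabine, 9.38, 9.78 and 10.6 CPM with ibrutinib and 4.69, 5.37 and 5.44 CPM with idelalisib. EGR3 rose with fludarabine by 1.29 (SE 0.26, adjusted p = 0.00173) in JVM2 and by 1.45 (SE 0.08, adjusted p = 1.79e-07) in EHEB. With ibrutinib it fell by 2.58 (SE 0.19, adjusted p = 1.49e-06) in MEC1, by 1.34 (SE 0.27, adjusted p = 0.00370) in JVM2 and by 0.89 (SE 0.08, adjusted p = 3.67e-05) in EHEB. With idelalisib the fall was 1.39 (SE 0.18, adjusted p = 6.13e-05) in MEC1, 2.32 (SE 0.29, adjusted p = 7.57e-05) in JVM2 and 1.83 (SE 0.08, adjusted p = 9.48e-08) in EHEB. None of these calls was lost in an alternative fit or without a library.

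NR4A1 encodes Nur77, a nuclear receptor widely used as a reporter of antigen-receptor signalling, and lies on chromosome 12, 52022832 to 52059507 (plus strand), overlapped on the opposite strand by NR4A1AS. MEC1 libraries held NR4A1 at 3.26, 5.75 and 7.03 CPM with DMSO, 5.99, 6.67 and 6.87 CPM with fludarabine, 2.09, 2.26 and 2.44 CPM with ibrutinib and 1.44, 1.66 and 1.98 CPM with idelalisib. The DMSO libraries spread widely and overlapped those with fludarabine (0.28, SE 0.24, adjusted p = 0.359), while both inhibitors lay below. NR4A1 fell by 1.24 (SE 0.24, adjusted p = 0.00143) with ibrutinib and by 1.66 (SE 0.25, adjusted p = 0.000166) with idelalisib. JVM2 libraries held NR4A1 at 7.22, 9.06 and 9.43 CPM with DMSO, 6.86, 7.97 and 8.91 CPM with fludarabine, 2.94, 4.64 and 4.89 CPM with ibrutinib and 1.81, 1.90 and 3.45 CPM with idelalisib. The pattern was the one of MEC1, with falls of 1.05 (SE 0.26, adjusted p = 0.0112) and 1.85 (SE 0.27, adjusted p = 0.000226) and a fludarabine difference of −0.12 (SE 0.25, adjusted p = 0.741), which was 0.08 when scaled by library size alone. In EHEB the values were 1.31, 1.48 and 2.11 CPM with DMSO, 6.07, 6.30 and 6.42 CPM with fludarabine, 0.160, 0.670 and 0.854 CPM with ibrutinib and 0.599, 0.826 and 0.895 CPM with idelalisib. Here fludarabine raised NR4A1 by 1.93 (SE 0.40, adjusted p = 0.00263), with no overlap between the groups. Ibrutinib lowered it by 1.55 (SE 0.43, adjusted p = 0.0272), a call that was lost with only the 6 libraries compared (adjusted p = 0.109) and without DMSO library EHEB_133 (0.0533), DMSO library EHEB_135 (0.0885) or ibrutinib library EHEB_281 (0.0565). Idelalisib lay below DMSO without passing the test (−1.07, SE 0.42, adjusted p = 0.0749), though it passed with DESeq2 (0.0375) and with only the 6 libraries compared (0.0308).

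NR4A2, or Nurr1, lies on chromosome 2, 156324437 to 156342348 (minus strand). Values of NR4A2 in MEC1 were 8.51, 10.1 and 11.6 CPM with DMSO, 12.1, 14.5 and 17.3 CPM with fludarabine, 3.22, 3.33 and 4.19 CPM with ibrutinib and 3.20, 3.52 and 4.35 CPM with idelalisib. The fludarabine libraries lay above DMSO and the others below, with the 2 inhibitors overlapping each other. NR4A2 fell by 1.49 (SE 0.18, adjusted p = 4.43e-05) with ibrutinib and by 1.44 (SE 0.18, adjusted p = 4.07e-05) with idelalisib. In JVM2 the values were 10.3, 10.6 and 12.7 CPM with DMSO, 13.7, 15.6 and 19.0 CPM with fludarabine, 6.61, 7.68 and 7.73 CPM with ibrutinib and 6.03, 8.29 and 8.43 CPM with idelalisib, again with no overlap between DMSO and any drug. The falls were 0.61 (SE 0.16, adjusted p = 0.0148) with ibrutinib, lost without DMSO library JVM2_87 (0.0610) or ibrutinib library JVM2_234 (0.0681), and 0.56 (SE 0.16, adjusted p = 0.0140) with idelalisib, lost without DMSO library JVM2_87 (0.0568) or idelalisib library JVM2_240 (0.0556). In EHEB the values were 4.69, 4.71 and 5.49 CPM with DMSO, 10.8, 10.9 and 16.6 CPM with fludarabine, 3.35, 3.52 and 3.77 CPM with ibrutinib and 3.80, 4.32 and 4.63 CPM with idelalisib, and the inhibitor libraries lay just below DMSO without passing the test (−0.48, SE 0.17, adjusted p = 0.0737 with ibrutinib and −0.22 (SE 0.17, adjusted p = 0.361) with idelalisib).

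With fludarabine, NR4A2 rose in each line, by 0.54 (SE 0.17, adjusted p = 0.0254) in MEC1, 0.53 (SE 0.16, adjusted p = 0.0172) in JVM2 and 1.36 (SE 0.17, adjusted p = 7.70e-05) in EHEB. The MEC1 call was lost without DMSO library MEC1_38 (0.0619), DMSO library MEC1_39 (0.0990), fludarabine library MEC1_46 (0.0562) or fludarabine library MEC1_47 (0.113), and the JVM2 call without DMSO library JVM2_85 (0.0555), DMSO library JVM2_86 (0.0628) or fludarabine library JVM2_95 (0.0737). The EHEB call was kept without each library.

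NR4A3, or NOR1, lies on chromosome 9, 99821855 to 99866891 (plus strand), overlapped on the opposite strand by STX17-DT. Values of NR4A3 in MEC1 were 1.63, 2.38 and 2.54 CPM with DMSO, 10.1, 10.3 and 12.004 CPM with fludarabine, 1.4996, 1.54 and 1.76 CPM with ibrutinib and 0.711, 0.888 and 1.04 CPM with idelalisib. The fludarabine libraries stood far above all others, with a rise of 2.31 (SE 0.19, adjusted p = 3.54e-06), or 4.96-fold, and idelalisib lay below DMSO (−1.299, SE 0.20, adjusted p = 0.000229). Ibrutinib overlapped DMSO (−0.44, SE 0.19, adjusted p = 0.0804; without DMSO library MEC1_37 the adjusted p was 0.0184). JVM2 libraries held NR4A3 at 0.793, 1.84 and 2.17 CPM with DMSO, 2.13, 3.11 and 3.35 CPM with fludarabine, 1.02, 1.06 and 1.15 CPM with ibrutinib and 0.749, 0.797 and 1.14 CPM with idelalisib. All 3 drugs overlapped DMSO there, which held 1 library at 0.793 CPM, and none passed the test. The differences were 0.83 (SE 0.33, adjusted p = 0.0631) with fludarabine, −0.58 (SE 0.34, adjusted p = 0.246) with ibrutinib and −0.84 (SE 0.35, adjusted p = 0.0724) with idelalisib. DESeq2, limma-voom and 2 other fits called the rise with fludarabine, at adjusted p values down to 0.0226, and so did the fits without DMSO library JVM2_87 (0.0348) or fludarabine library JVM2_95 (0.0461); without DMSO library JVM2_85, both inhibitors passed (0.0317 with ibrutinib and 0.00599 with idelalisib). In EHEB the values were 2.44, 3.001 and 3.24 CPM with DMSO, 7.51, 7.76 and 8.13 CPM with fludarabine, 0.945, 1.14 and 1.39 CPM with ibrutinib and 0.604, 0.705 and 0.895 CPM with idelalisib, with no overlap. NR4A3 rose there by 1.43 (SE 0.18, adjusted p = 0.000101) with fludarabine and fell by 1.31 (SE 0.19, adjusted p = 0.000822) with ibrutinib and by 1.96 (SE 0.20, adjusted p = 2.68e-05) with idelalisib.

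FOS, the classical immediate early partner of JUN (chromosome 14, 75278826 to 75282230, plus strand), had low counts. The MEC1 levels of FOS were 1.17, 1.296 and 1.82 CPM with DMSO, 3.54, 4.34 and 4.77 CPM with fludarabine, 0, 0.0870 and 0.240 CPM with ibrutinib and 0, 0 and 0.415 CPM with idelalisib. These values rest on 46 to 75 counts per library with DMSO, at least 122 with fludarabine, 0 to 12 with ibrutinib and 0 to 14 with idelalisib. The fludarabine libraries lay above DMSO and the inhibitor libraries below. FOS fell by 3.62 (SE 0.98, adjusted p = 0.0102) with ibrutinib and by 3.46 (SE 1.00, adjusted p = 0.0121) with idelalisib, where 3 of the 6 libraries are listed at 0. The difference with fludarabine was 1.56 (SE 0.79, adjusted p = 0.136), and passed with limma-voom (0.00217) and with only the 6 libraries compared (0.00200). In JVM2 the values were 0, 0.335 and 0.492 CPM with DMSO, 0.412, 0.761 and 0.883 CPM with fludarabine, 0.0972, 0.148 and 0.172 CPM with ibrutinib and 0, 0.193 and 0.310 CPM with idelalisib, from at most 38 counts. In EHEB they were 0.725, 1.000 and 1.36 CPM with DMSO, 1.36, 1.64 and 1.80 CPM with fludarabine, 1.19, 1.34 and 1.48 CPM with ibrutinib and 0.667, 1.23 and 1.27 CPM with idelalisib, from 21 to 68 counts. Every treatment overlapped DMSO in these 2 lines and none passed the test. The differences with fludarabine, ibrutinib and idelalisib were 1.27 (SE 0.98, adjusted p = 0.316), −0.998 (SE 1.06, adjusted p = 0.545) and −0.69 (SE 1.04, adjusted p = 0.627) in JVM2, and 0.64 (SE 0.30, adjusted p = 0.123), 0.38 (SE 0.30, adjusted p = 0.432) and 0.04 (SE 0.31, adjusted p = 0.934) in EHEB.

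FOSB, a second FOS-family partner of JUN, lies on chromosome 19, 45467995 to 45475179 (plus strand) and overlaps ERCC1, a DNA repair gene of the opposite strand, so reads of the pair may be mixed. The MEC1 levels of FOSB were 1.63, 2.73 and 3.66 CPM with DMSO, 2.87, 2.98 and 4.14 CPM with fludarabine, 0.600, 0.762 and 0.783 CPM with ibrutinib and 0.178, 0.558 and 0.615 CPM with idelalisib. Both inhibitors lay below DMSO, and fludarabine overlapped it. JVM2 libraries held FOSB at 2.80, 3.09 and 3.16 CPM with DMSO, 2.53, 2.81 and 3.82 CPM with fludarabine, 0.878, 1.34 and 1.51 CPM with ibrutinib and 1.11, 1.24 and 1.35 CPM with idelalisib, with the same arrangement. In EHEB they were 2.90, 3.78 and 3.86 CPM with DMSO, 7.48, 7.92 and 9.20 CPM with fludarabine, 4.94, 7.12 and 8.71 CPM with ibrutinib and 4.93, 5.14 and 5.47 CPM with idelalisib, and there all 3 drugs lay above DMSO. FOSB thus fell by 1.90 (SE 0.40, adjusted p = 0.00210) with ibrutinib and 2.54 (SE 0.42, adjusted p = 0.000311) with idelalisib in MEC1, and by 1.29 (SE 0.23, adjusted p = 0.00174) and 1.28 (SE 0.23, adjusted p = 0.000910) in JVM2. In EHEB it rose by 1.22 (SE 0.20, adjusted p = 0.000519) with fludarabine and 0.98 (SE 0.20, adjusted p = 0.00525) with ibrutinib. The rise with idelalisib, 0.56 (SE 0.20, adjusted p = 0.0489), was lost with limma-voom (0.0774), without the filter on low counts (0.0686) and without DMSO library EHEB_133 (0.0630), DMSO library EHEB_134 (0.151), DMSO library EHEB_135 (0.0668), idelalisib library EHEB_286 (0.0851), idelalisib library EHEB_287 (0.0809) or idelalisib library EHEB_288 (0.117). The fludarabine differences in MEC1 and JVM2 were 0.31 (SE 0.37, adjusted p = 0.527) and 0.02 (SE 0.22, adjusted p = 0.948).

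JUN encodes the AP-1 subunit that can also pair with itself (chromosome 1, 58776845 to 58784048, minus strand, 1 exon). Its replicates were tight. In MEC1 it stood at 17.6, 18.9 and 18.9 CPM with DMSO, 30.5, 31.8 and 33.8 CPM with fludarabine, 5.24, 6.54 and 6.72 CPM with ibrutinib and 9.69, 9.84 and 10.0 CPM with idelalisib. Fludarabine lay above DMSO and both inhibitors below, ibrutinib lowest. In JVM2 the values were 49.9, 52.5 and 52.6 CPM with DMSO, 76.0, 76.2 and 76.9 CPM with fludarabine, 24.8, 25.1 and 26.9 CPM with ibrutinib and 56.5, 56.6 and 58.8 CPM with idelalisib, so that fludarabine and idelalisib lay above DMSO and ibrutinib below. In EHEB they were 26.7, 29.4 and 32.5 CPM with DMSO, 57.8, 61.3 and 63.4 CPM with fludarabine, 26.9, 27.4 and 28.1 CPM with ibrutinib and 66.3, 72.0 and 73.0 CPM with idelalisib. There the ibrutinib libraries lay within the DMSO range, while idelalisib lay above fludarabine in each of its libraries. JUN rose with fludarabine by 0.80 (SE 0.10, adjusted p = 5.13e-05) in MEC1, 0.56 (SE 0.05, adjusted p = 3.59e-06) in JVM2 and 1.04 (SE 0.08, adjusted p = 1.40e-06) in EHEB. With ibrutinib it fell by 1.58 (SE 0.10, adjusted p = 4.29e-07) in MEC1 and 1.01 (SE 0.05, adjusted p = 5.38e-07) in JVM2, and the EHEB difference was −0.10 (SE 0.08, adjusted p = 0.393).

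With idelalisib JUN went in opposite directions. It fell by 0.90 (SE 0.10, adjusted p = 1.24e-05) in MEC1 and rose by 1.25 (SE 0.08, adjusted p = 6.34e-07) in EHEB, or 2.39-fold. The small rise in JVM2, 0.15 (SE 0.05, adjusted p = 0.0284), was lost without the filter on low counts (0.0948) and without DMSO library JVM2_85 (0.107), DMSO library JVM2_86 (0.0524), DMSO library JVM2_87 (0.0547) or idelalisib library JVM2_240 (0.0708).

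JUNB, an AP-1 subunit that often opposes JUN, lies on chromosome 19, 12791486 to 12793315 (plus strand, 1 exon), overlapped on the opposite strand by HOOK2. In MEC1 it stood at 55.9, 56.7 and 59.9 CPM with DMSO, 97.4, 100 and 102 CPM with fludarabine, 42.2, 47.9 and 54.2 CPM with ibrutinib and 28.0, 30.1 and 30.6 CPM with idelalisib. JVM2 libraries held JUNB at 151, 157 and 167 CPM with DMSO, 196, 206 and 224 CPM with fludarabine, 115, 119 and 124 CPM with ibrutinib and 93.7, 94.7 and 94.7 CPM with idelalisib. In EHEB they were 131, 146 and 155 CPM with DMSO, 164, 165 and 182 CPM with fludarabine, 109, 113 and 120.3 CPM with ibrutinib and 84.3, 85.98 and 89.3 CPM with idelalisib. In each line the order of the groups was fludarabine, DMSO, ibrutinib and idelalisib from high to low, without overlap between any of the 4. JUNB rose with fludarabine by 0.79 (SE 0.08, adjusted p = 2.04e-05) in MEC1, 0.40 (SE 0.06, adjusted p = 0.000166) in JVM2 and 0.24 (SE 0.07, adjusted p = 0.0178) in EHEB. The EHEB call was lost without the filter on low counts (0.0604) and without DMSO library EHEB_133 (0.0793) or fludarabine library EHEB_142 (0.0810). With idelalisib JUNB fell by 0.96 (SE 0.09, adjusted p = 2.88e-06), 0.75 (SE 0.06, adjusted p = 2.26e-06) and 0.73 (SE 0.07, adjusted p = 1.45e-05) in MEC1, JVM2 and EHEB. With ibrutinib it fell by 0.41 (SE 0.06, adjusted p = 0.000413) in JVM2, 0.34 (SE 0.07, adjusted p = 0.00633) in EHEB and 0.26 (SE 0.08, adjusted p = 0.0256) in MEC1. This last call was lost with scaling by library size alone (0.119), with only the 6 libraries compared (0.0735) and without DMSO library MEC1_37 (0.0832), ibrutinib library MEC1_185 (0.0892) or ibrutinib library MEC1_186 (0.0598).

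**Figure D2:**
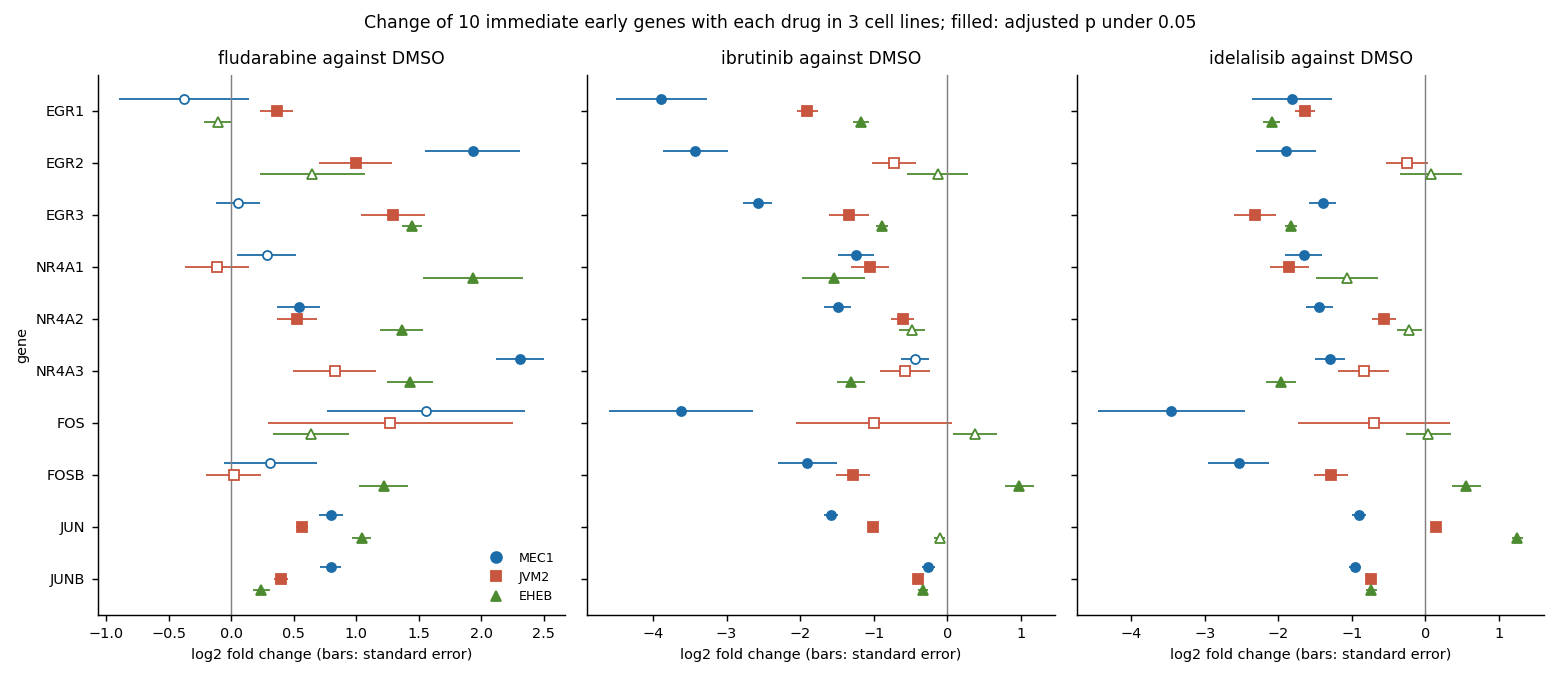
Log2 fold change against DMSO (x axis, a scale for each panel) of each gene with fludarabine, ibrutinib and idelalisib; bars are standard errors, colour and shape give the line, and filled points passed an adjusted p under 0.05. No filled point lies below 0 with fludarabine, and with the kinase inhibitors those above 0 are FOSB and JUN in EHEB and JUN in JVM2.

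The 2 kinase inhibitors act at neighbouring steps below the B-cell receptor, and their libraries belong to the same run of library numbers. Idelalisib and ibrutinib differed for 6 of 10 members in MEC1 (4 higher with idelalisib, 2 lower; 15.4% of all genes differed), 3 in JVM2 (1 higher, 2 lower; 18.7%) and 4 in EHEB (1 higher, 3 lower; 15.9%). Without ibrutinib library MEC1_184, idelalisib library MEC1_190 or idelalisib library MEC1_192, the MEC1 count fell to 3. JUN and JUNB differed in every line and in opposite directions. JUN was higher with idelalisib by 0.67 (SE 0.10, adjusted p = 0.00188) in MEC1, 1.16 (SE 0.05, adjusted p = 2.19e-07) in JVM2 and 1.36 (SE 0.08, adjusted p = 2.29e-06) in EHEB. JUNB was lower with idelalisib, with differences of −0.70 (SE 0.08, adjusted p = 0.000951), −0.34 (SE 0.06, adjusted p = 0.00218) and −0.40 (SE 0.07, adjusted p = 0.00285) in the same order. EGR3 was higher with idelalisib in MEC1 (1.18, SE 0.19, adjusted p = 0.00315) and lower in JVM2 (−0.97, SE 0.29, adjusted p = 0.0406) and EHEB (−0.94, SE 0.08, adjusted p = 3.57e-05). EGR1 was higher with idelalisib in MEC1 (2.07, SE 0.61, adjusted p = 0.0411), an estimate that includes ibrutinib library MEC1_185, listed at 0. It was lower in EHEB (−0.92, SE 0.11, adjusted p = 0.000323), with 0.27 (SE 0.14, adjusted p = 0.223) in JVM2.

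Of these calls, several from MEC1 and JVM2 were lost when 1 library was left out, mostly whichever library it was, or in an alternative fit. EGR1 in MEC1 was lost without ibrutinib library MEC1_184 (0.0576), ibrutinib library MEC1_186 (0.0745), idelalisib library MEC1_190 (0.102), idelalisib library MEC1_191 (0.0723) or idelalisib library MEC1_192 (0.0967). EGR2, which was higher with idelalisib in MEC1 (1.53, SE 0.46, adjusted p = 0.0440), was lost without ibrutinib library MEC1_184 (0.0627), ibrutinib library MEC1_185 (0.111), ibrutinib library MEC1_186 (0.144), idelalisib library MEC1_190 (0.110), idelalisib library MEC1_191 (0.104) or idelalisib library MEC1_192 (0.0857). NR4A3, lower with idelalisib in MEC1 (−0.86, SE 0.20, adjusted p = 0.0168), was lost without ibrutinib library MEC1_184 (0.0628), idelalisib library MEC1_190 (0.0678) or idelalisib library MEC1_192 (0.0529). EGR3 in JVM2 was lost without ibrutinib library JVM2_232 (0.117), ibrutinib library JVM2_233 (0.0720), ibrutinib library JVM2_234 (0.0696), idelalisib library JVM2_238 (0.117) or idelalisib library JVM2_240 (0.136). The EGR1 call was also lost without the filter on low counts (0.0574) and with only the 6 libraries compared (0.168), and that of NR4A3 with these 6 (0.0787) and limma-voom (0.0657). EGR2 in MEC1 and EGR3 in JVM2 were lost with limma-voom (0.465 and 0.0685), with scaling by library size alone (0.0513 and 0.05001) and without the filter (0.0580 and 0.0617), and EGR3 also with only the 6 libraries (0.126). The calls of JUN and JUNB in the 3 lines, of EGR3 in MEC1 and of EGR1 and EGR3 in EHEB were kept. NR4A1, NR4A2, FOS and FOSB were called in no line with edgeR on all 12 libraries. NR4A1 in JVM2 (−0.80, SE 0.27, adjusted p = 0.0615) was called with DESeq2 (0.0239) and without ibrutinib library JVM2_232 (0.0328) or idelalisib library JVM2_238 (0.00988), and FOSB in EHEB (−0.42, SE 0.19, adjusted p = 0.190) without ibrutinib library EHEB_282 (0.0349). For NR4A2 the approximate 95% intervals of the difference were −0.31 to 0.40 (MEC1), −0.27 to 0.36 (JVM2) and −0.08 to 0.60 (EHEB).

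**Figure D3:**
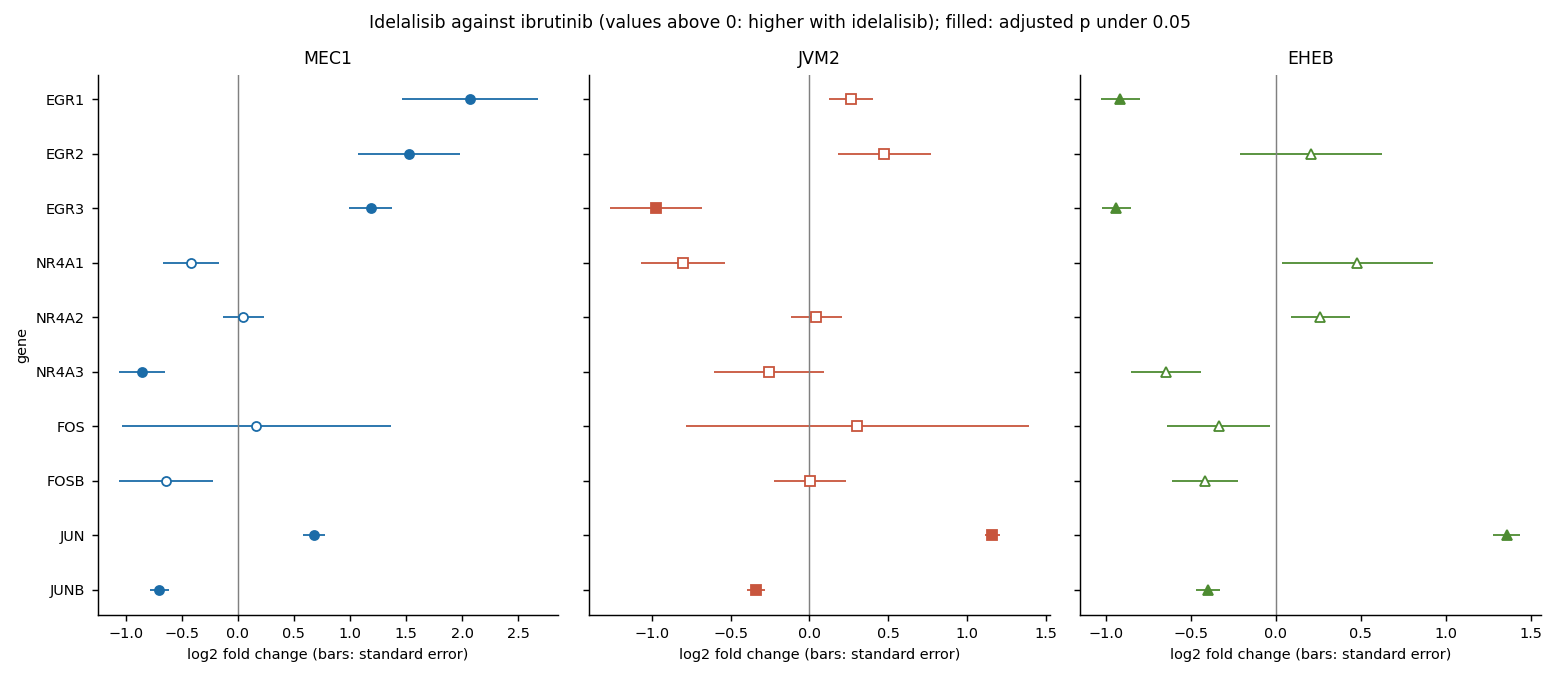
Log2 fold change of idelalisib over ibrutinib (x axis) for each gene in MEC1, JVM2 and EHEB; bars are standard errors and filled points passed an adjusted p under 0.05. JUN lies above 0 and JUNB below 0 in each line, while EGR1 and EGR3 lie above 0 in MEC1 and below 0 in EHEB.

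Between fludarabine and ibrutinib, all 10 members were higher with fludarabine in MEC1 (51.4% of all genes differed), 9 in JVM2 (42.7%) and 7 in EHEB (33.3%), and none was lower. Between fludarabine and idelalisib, 10 were higher with fludarabine in MEC1 (56.2%), 9 in JVM2 (41.1%) and 7 in EHEB (42.7%), where JUN was lower. These drugs lie in different runs of library numbers. The widest gap in MEC1 was that of EGR2 against ibrutinib, 5.36 (SE 0.46, adjusted p = 2.58e-06), and that of FOS against idelalisib, 5.02 (SE 1.01, adjusted p = 0.00122), where 2 idelalisib libraries are listed at 0. In EHEB it was NR4A1 against ibrutinib (3.48, SE 0.44, adjusted p = 9.07e-05) and NR4A3 against idelalisib (3.39, SE 0.21, adjusted p = 2.08e-07). In JVM2 it was EGR3, at 2.63 (SE 0.27, adjusted p = 1.66e-05) and 3.61 (SE 0.29, adjusted p = 2.25e-06). The lower JUN in EHEB, −0.21 (SE 0.08, adjusted p = 0.0441), was lost with scaling by library size alone (0.0619) and without fludarabine library EHEB_143 (0.0645), fludarabine library EHEB_144 (0.102), idelalisib library EHEB_287 (0.115) or idelalisib library EHEB_288 (0.0931). The higher EGR1 in MEC1, 1.44 (SE 0.54, adjusted p = 0.0409), was lost without the filter on low counts (0.0547) and without fludarabine library MEC1_46 (0.0580), fludarabine library MEC1_47 (0.0921), fludarabine library MEC1_48 (0.0894), idelalisib library MEC1_190 (0.0872), idelalisib library MEC1_191 (0.100) or idelalisib library MEC1_192 (0.0883). The higher FOSB in EHEB, 0.66 (SE 0.19, adjusted p = 0.0173), was lost without fludarabine library EHEB_142 (0.0687), idelalisib library EHEB_286 (0.0519) or idelalisib library EHEB_287 (0.0554).

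Whether a drug changed a member by a different amount between lines was tested directly, by an interaction term over the 18 libraries that received either DMSO or the drug. The change differed for 8 of 10 members with fludarabine (39.1% of all genes), 7 with ibrutinib (33.6%) and 5 with idelalisib (45.7%), the last close to the share of all genes. Over the alternative fits and the fits without 1 library, these counts ranged from 6 to 9, from 6 to 7 and from 4 to 6. Of the 20 calls, 13 were kept in all of these fits. The other 7 were EGR1, NR4A2, NR4A3 and FOSB with fludarabine, FOS with ibrutinib, and EGR2 and JUNB with idelalisib, which reached adjusted p values of 0.0651, 0.139, 0.0523, 0.0908, 0.0709, 0.174 and 0.148 at most. JUN with idelalisib had the smallest adjusted p (8.63e-10), with a change in EHEB above that in MEC1 by 2.20 (SE 0.10, adjusted p = 3.46e-10) and above that in JVM2 by 1.09 (SE 0.10, adjusted p = 1.57e-06). FOSB in EHEB differed from MEC1 with ibrutinib by 2.89 (SE 0.41, adjusted p = 8.18e-05) and with idelalisib by 3.14 (SE 0.46, adjusted p = 5.04e-05), where the signs were opposite. The EGR2 change with ibrutinib was higher in EHEB, where EGR2 was not called, than in MEC1 by 3.30 (SE 0.30, adjusted p = 1.52e-06). With fludarabine, the change in EHEB minus that in MEC1, where EGR3 and NR4A1 were not called, was 1.32 (SE 0.19, adjusted p = 7.57e-05) for EGR3, 1.58 (SE 0.33, adjusted p = 0.00184) for NR4A1 and, for JUNB, −0.62 (SE 0.09, adjusted p = 9.39e-05). No difference between lines was called for EGR1, EGR3, NR4A1, NR4A3 and FOS with idelalisib (adjusted p = 0.163, 0.108, 0.323, 0.147 and 0.149), for NR4A1, NR4A3 and JUNB with ibrutinib (0.775, 0.231 and 0.715), or for EGR2 and FOS with fludarabine (0.145 and 0.559). Of these, EGR3 and FOS with idelalisib were each called in 1 alternative fit (0.0400 and 0.0263) and without 1 library (0.00243 and 0.0105). EGR2 with fludarabine was called without either of 2 libraries (lowest adjusted p 0.0151). The lines differ in exposure time as well.

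Other genes of the pathway were read in 5 lists, whose counts stand beside the shares of all genes that were called. Over the 3 lines, 18.4% to 23.9% of all genes were higher and 19.2% to 23.3% lower with fludarabine, 8.50% to 23.7% and 11.2% to 23.9% with ibrutinib, and 15.1% to 27.6% and 18.2% to 27.4% with idelalisib. Of 7 other AP-1 and ATF subunits, 4 were higher and 2 lower with fludarabine in MEC1, 5 and 0 in JVM2, and 7 and 0 in EHEB. Among them BATF2 rose by 1.73 to 2.98 and FOSL1 by 1.11 to 1.69 over the 3 lines on the log2 scale. With ibrutinib the counts were 1 higher and 3 lower, 2 and 3, and 2 and 2 in the same order of lines. FOSL2, a late FOS-family subunit, fell by 1.83 to 1.94 and JUND, a broadly expressed JUN subunit, by 0.39 to 0.78 in all 3 lines. With idelalisib the counts were 0 and 4, 2 and 2, and 1 and 1, those of JVM2 and EHEB lying near the shares of all genes. FOSL2 (2.06 and 2.32) and FOSL1 (1.19 and 1.94) fell in 2 lines.

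The 2 EGR corepressors, NAB1 and NAB2, dampen EGR proteins, and NAB2 is itself a known EGR target. NAB2 rose by 0.31 to 0.75 with fludarabine and fell by 0.54 to 1.32 with ibrutinib and by 0.72 to 1.57 with idelalisib in all 3 lines. NAB1 fell with fludarabine in JVM2 by 1.23 (SE 0.21, adjusted p = 0.000617), opposite to NAB2, and was not called in MEC1 or EHEB. With the kinase inhibitors NAB1 fell in MEC1, by 0.76 (SE 0.24, adjusted p = 0.0221) with ibrutinib and 0.92 (SE 0.24, adjusted p = 0.00695) with idelalisib, and in JVM2, by 0.74 (SE 0.21, adjusted p = 0.0205) and 0.93 (SE 0.21, adjusted p = 0.00399), and was not called in EHEB. Of 12 other immediate early genes, 10 were tested in MEC1 and JVM2 and 12 in EHEB. With fludarabine, 2 were higher and 1 lower in MEC1, 3 and 3 in JVM2, and 3 and 1 in EHEB, which for MEC1 and JVM2 lies near the shares of all genes. IER3 (1.16 to 2.48) and IER5 (0.48 to 0.54) rose in all 3 lines. With ibrutinib, 1 and 3, 1 and 4, and 1 and 1 changed, the EHEB counts lying near the shares of all genes (8.50% and 11.2%). MAFF fell by 1.62 and 2.67 and KLF2 rose by 0.79 and 1.63 in 2 lines. With idelalisib, 1 and 4, 1 and 5, and 2 and 2 changed, the EHEB counts again lying near the shares of all genes (15.1% and 18.2%). KLF2, a quiescence factor of lymphocytes, rose by 1.41 to 2.25 in all 3 lines.

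Among 12 transcription factors upstream of the members, 2 were higher and 3 lower with fludarabine in MEC1, 1 and 3 in JVM2, and 3 and 6 in EHEB, so that in MEC1 the shares were close to those of all genes. MEF2C fell by 0.45 and 1.42 and ATF1 by 0.31 and 0.52 in 2 lines. With ibrutinib 2 and 6, 2 and 2, and 1 and 3 changed, the JVM2 counts lying near the shares of all genes (14.5% and 15.0%). SRF, the factor that binds the CArG box, fell by 0.15 to 0.24 in all 3 lines. With idelalisib 2 and 6, 3 and 2, and 3 and 2 changed. The JVM2 and EHEB counts lay near the shares of all genes (21.6% and 22.6% in JVM2, 15.1% and 18.2% in EHEB). ELK1 fell by 0.64 and 0.91 and MRTFA rose by 0.43 in 2 lines. Of 13 genes of the ERK and calcium relay, fludarabine raised 1 and lowered 5 in MEC1, 0 and 7 in JVM2, and 1 and 9 in EHEB, with a fall of MAP2K1 (0.62 to 0.85), a kinase of the ERK cascade, in all 3 lines. Ibrutinib raised 1 and lowered 8, 3 and 3, and 1 and 5, and idelalisib 1 and 10, 3 and 4, and 1 and 5. The JVM2 counts with both inhibitors lay near the shares of all genes. NFATC2 fell by 0.45 to 1.02 with ibrutinib in all 3 lines. MAP2K1 fell in all 3 lines with both inhibitors, by 0.27 to 0.70 with ibrutinib and by 0.30 to 0.90 with idelalisib. RASGRP3, a Ras activator, rose with ibrutinib and idelalisib, by 0.37 to 0.83 and 0.839 to 1.298, in all 3 lines. It fell with fludarabine, by 0.33 to 1.12, in all 3 lines.

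**Figure D4:**
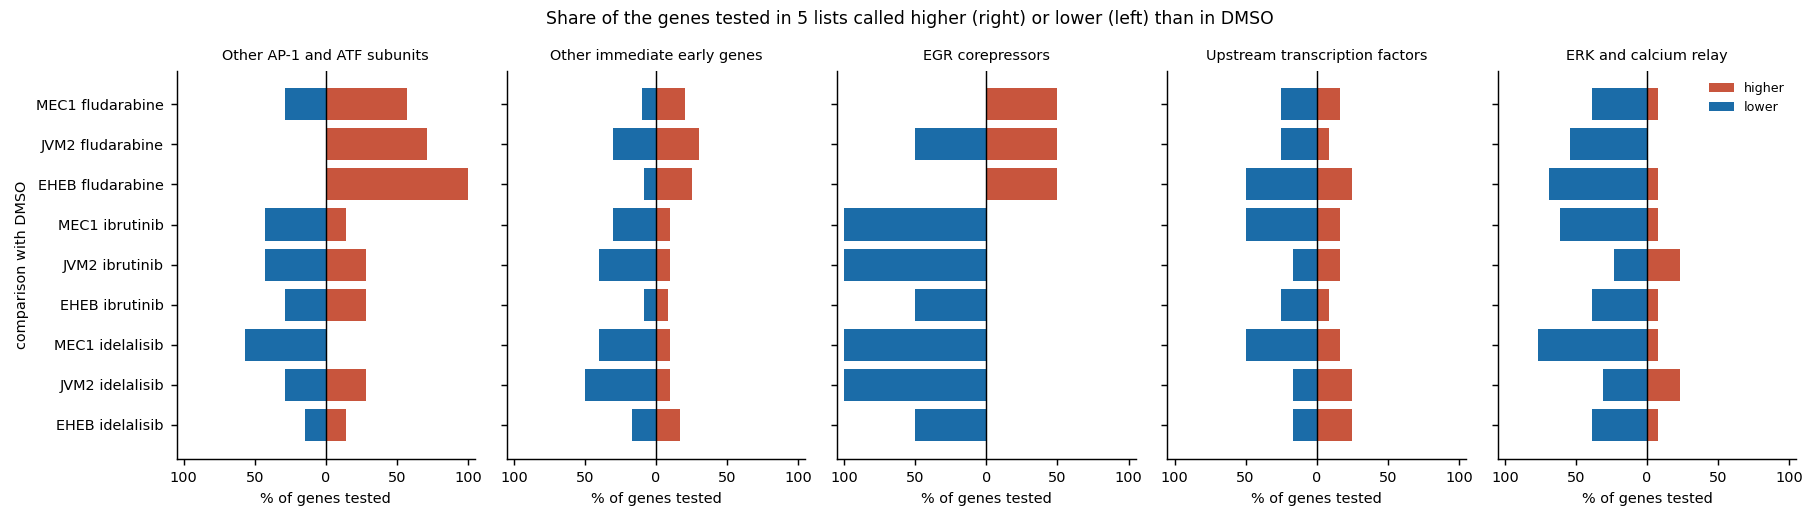
Share of the genes tested in each list (x axis, %) that was higher (right) or lower (left) than with DMSO, by drug and line. The other AP-1 and ATF subunits reach 7 of 7 higher with fludarabine in EHEB, and the ERK and calcium relay 10 of 13 lower with idelalisib in MEC1.

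The genes most like each member in pattern were found by Pearson correlation over the 36 libraries of log2(CPM + 0.5) after removing the mean of each line, among 13314 genes. The points share lines, treatments and library depth, so these values are descriptions. EGR3 was most like AP1S3 (r = 0.953) and GM2A (0.945), and EGR1 like PDLIM1 (0.908). EGR2 was most like CPEB4 (0.900) and DUSP4 (0.886), but within EHEB these were 0.0797 and 0.0470. NR4A1 was most like FOSL2 (0.919) and POLH (0.897), NR4A2 like PLXNB2 (0.937) and MAD1L1 (0.935), and NR4A3 like DGKG (0.935) and PLEKHO2 (0.935). JUNB was most like SERPINB9 (0.952) and ERF (0.947), and JUN like WHAMM (0.904) and LRP5 (0.893). FOSB was most like HSPA1B (0.903), which has a near-identical copy, and SHROOM1 (0.890). FOS was most like ZSWIM8 (0.911) and ADO (0.902), with 0.296 and 0.225 within EHEB.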

How the data were processed

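Total RNA depleted of ribosomal RNA was sequenced from 36 libraries. Per the labels and the study's methods, the authors trimmed reads with Trimmomatic, aligned them to GRCh38 with HISAT2 2.1 and made a table with StringTie 1.3.4. The deposited values are estimated counts per gene symbol made by the authors, all whole numbers and not normalized. The sources used here do not name the annotation release, the read length or the use of strand. The entry with a blank symbol (0.00384% of counts) was left out. Libraries were grouped by their titles.

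Each line was fitted alone on its 12 libraries with edgeR 4.0.16 (R 4.3.3): filterByExpr (minimum count 10, total 15), TMM scaling, the quasi-likelihood F-test and Benjamini-Hochberg adjustment over all genes tested, at 0.05. The 4 treatments give 18 comparisons. The change between lines was tested as an interaction on 18 libraries per drug. CPM uses TMM-adjusted library sizes. The standard errors were calculated back from the test, as the absolute log2 fold change divided by the square root of the F statistic. Intervals are the log2 fold change ± the normal 95% quantile times this standard error, and are approximate. DESeq2 1.42.0, limma-voom 3.58.1, library size scaling, other filters, only the 6 libraries compared and each library left out were alternatives. The code was tested on simulated data. Replicate pairs differed beyond counting noise (chi-square per degree of freedom 27.2 to 53.6 over 36 pairs), so none was counted once.

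The members and gene lists were chosen with earlier results of these data known. Named besides the members were up to 2 genes for each list and drug, called in the same direction in all 3 lines or else in 2, and the 2 genes most alike in pattern; some that this rule names are not reported here. NAB1, MAP2K1 with ibrutinib and RASGRP3 with fludarabine were added after their values were seen. Genes overlapping on either strand cannot be separated by these counts. A library is named by its line and the number in its title.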

Additional observations from a re-analysis of the deposited data

Results flagged for a closer look

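The change with a drug differed between the 3 lines in 20 of 30 tests of a member and a drug (interaction in edgeR, adjusted p under 0.05), with 8, 7 and 5 of 10 for fludarabine, ibrutinib and idelalisib beside 39.1%, 33.6% and 45.7% of all genes. Of these, 13 were kept in every alternative fit and without each library. The 7 not kept were EGR1, NR4A2, NR4A3 and FOSB with fludarabine, FOS with ibrutinib, and EGR2 and JUNB with idelalisib. The log2 fold changes follow in the order MEC1, JVM2 and EHEB.

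With fludarabine, EGR1 had log2 fold changes of −0.38, 0.37 and −0.11 (adjusted p = 0.0180). EGR3 had log2 fold changes of 0.05, 1.29 and 1.45 (adjusted p = 8.14e-05). NR4A1 had log2 fold changes of 0.28, −0.12 and 1.93 (adjusted p = 0.000397). NR4A2 had log2 fold changes of 0.54, 0.53 and 1.36 (adjusted p = 0.0403). NR4A3 had log2 fold changes of 2.31, 0.83 and 1.43 (adjusted p = 0.0184). FOSB had log2 fold changes of 0.31, 0.02 and 1.22 (adjusted p = 0.0369). JUN had log2 fold changes of 0.80, 0.56 and 1.04 (adjusted p = 0.00597). JUNB had log2 fold changes of 0.79, 0.40 and 0.24 (adjusted p = 0.000182).

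With ibrutinib, EGR1 had log2 fold changes of −3.89, −1.90 and −1.17 (adjusted p = 0.00737). EGR2 had log2 fold changes of −3.43, −0.72 and −0.13 (adjusted p = 2.48e-06). EGR3 had log2 fold changes of −2.58, −1.34 and −0.89 (adjusted p = 0.000117). NR4A2 had log2 fold changes of −1.49, −0.61 and −0.48 (adjusted p = 0.00156). FOS had log2 fold changes of −3.62, −0.998 and 0.38 (adjusted p = 0.0291). FOSB had log2 fold changes of −1.90, −1.29 and 0.98 (adjusted p = 0.000119). JUN had log2 fold changes of −1.58, −1.01 and −0.10 (adjusted p = 2.24e-06).

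With idelalisib, EGR2 had log2 fold changes of −1.90, −0.25 and 0.08 (adjusted p = 0.0109). NR4A2 had log2 fold changes of −1.44, −0.56 and −0.22 (adjusted p = 0.000982). FOSB had log2 fold changes of −2.54, −1.28 and 0.56 (adjusted p = 0.000127). JUN had log2 fold changes of −0.90, 0.15 and 1.25 (adjusted p = 8.63e-10). JUNB had log2 fold changes of −0.96, −0.75 and −0.73 (adjusted p = 0.0297).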

How the results depend on the processing

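Of 90 results of a member against DMSO, 63 were called; 56 stayed called in every alternative fit, 52 without each library in turn and 51 in both. Over all 18 comparisons, 129 of 180 were called and 109 stayed so throughout. Beside these counts, 8.50% to 27.6% of all genes were higher and 11.2% to 27.4% lower in the comparisons with DMSO. In the comparisons between drugs, 15.4% to 56.2% of all genes differed. No count of changed members moved by over 1.5 times in an alternative fit. Without 1 library, the count for idelalisib against ibrutinib in MEC1 ranged from 3 to 5, from 6. No call changed sign. Some uncalled values changed sign, with scaling by library size alone for NR4A2 in MEC1 idelalisib against ibrutinib (−0.115), FOS in MEC1 idelalisib against ibrutinib (−0.00853), NR4A1 in JVM2 fludarabine against DMSO (0.0797), EGR1 in EHEB fludarabine against DMSO (0.00158). Others changed sign with limma-voom for FOS in MEC1 idelalisib against ibrutinib (−0.947), FOS in JVM2 idelalisib against ibrutinib (−0.479), EGR2 in EHEB idelalisib against DMSO (−0.199), EGR2 in EHEB idelalisib against ibrutinib (−0.0805). Others changed sign with only the 6 libraries compared for FOSB in JVM2 idelalisib against ibrutinib (−0.00440). With 1 library left out, these uncalled values took both signs: EGR3 in MEC1 fludarabine against DMSO (−0.0770 to 0.135), NR4A2 in MEC1 idelalisib against ibrutinib (−0.100 to 0.175), FOS in MEC1 idelalisib against ibrutinib (−5.24 to 1.41), FOSB in JVM2 fludarabine against DMSO (−0.174 to 0.137), EGR2 in JVM2 idelalisib against DMSO (−0.424 to 0.0647), NR4A2 in JVM2 idelalisib against ibrutinib (−0.0514 to 0.174), FOS in JVM2 idelalisib against ibrutinib (−0.500 to 0.836), FOSB in JVM2 idelalisib against ibrutinib (−0.204 to 0.153), EGR2 in EHEB idelalisib against DMSO (−0.171 to 0.456), FOS in EHEB idelalisib against DMSO (−0.143 to 0.305), EGR2 in EHEB idelalisib against ibrutinib (−0.0446 to 0.588). The cause of these changes of sign was not tested. FOS, with at most 38 counts per library in JVM2, and the libraries listed at 0 limit what depth can show. The replicate numbers of the titles differ between all libraries. No paired analysis was possible because the groups share no replicate number.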

Other observations

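Within groups, the highest EGR2 library exceeded the lowest by over 2 times in 4 of 12 groups, and by 3.47 times in MEC1 with fludarabine, beside 0 to 2 groups for each other member except FOS. FOS did so in 1 of its 8 groups without a library at 0, and its 4 other groups each held a 0 beside libraries with counts. Among groups without a 0, the widest was NR4A1 in EHEB with ibrutinib, at 5.34 times. JUN and JUNB had medians over groups of 1.08 and 1.10 times and EGR2 one of 1.54. EGR1, at a level near that of EGR2, had a median of 1.18 times over the 11 groups without a library at 0. The EGR2 libraries that stood apart were MEC1_47 with fludarabine (low), EHEB_143 with fludarabine (high), EHEB_287 with idelalisib (low) and JVM2_240 with idelalisib (low). This gene was picked after its values were seen, and no cause was tested.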
